A study of Mus musculus with 32 samples.

Results

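The translation initiation factor genes were taken as every gene of the deposited mouse expression table whose symbol starts with Eif1 to Eif6 and continues only with lower-case letters and digits, leaving out Eif4enif1, a binding protein of eIF4E. The rule found 55 genes of the 54532 in the table, and it used no measured value. The table covers 32 libraries, each made from 1 egg or 1 embryo: 3 WT M-II eggs, 3 M-II eggs labelled Trp53 KO, 8 WT and 6 Trp53 MZ-KO early 2-cell embryos, and 6 WT and 6 Trp53 MZ-KO late 2-cell embryos. The WT controls were Trp53 flox/flox, with the floxed exons 2 to 10 still present. In the knockout animals these exons had been removed with a Ddx4::Cre driver, which acts in germ cells. MZ-KO embryos, which lack both the maternal and the zygotic gene, came from KO females mated to KO males. All animals were kept on a mixed Bl6/C57 background and the females were hormone-primed. Zygotes were taken 24 hours after hCG and cultured in KSOM. Early 2-cell embryos were collected 28 to 32 hours, and late 2-cell embryos 48 hours, after hCG. The labels call the libraries biological replicates, without the number of females behind each group, so p-values measure the spread between these single eggs and embryos.

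Trp53 itself did not follow the labels in 2 of the 3 stages. It was 7.86 ± 2.13 FPKM in WT eggs and 8.2 ± 1.75 in eggs labelled KO (SD, n = 3 each). In early 2-cell embryos it was 6.05 ± 2.64 (n = 8) in WT and 0.77 ± 0.33 (n = 6) in MZ-KO, a log2 difference of -1.92 (adjusted p = 0.00126, limma). In late 2-cell embryos it was 3.24 ± 2.31 in WT and 2.82 ± 1.38 in MZ-KO (n = 6 each), a log2 difference of -0.03 (adjusted p = 0.955). The groups are therefore called "labelled KO" and "labelled MZ-KO", and every genotype direction for eggs and late embryos rests on those labels. How many reads fall outside the deleted exons cannot be read from 1 value per gene.

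FPKM is a count of fragments scaled by the length of the gene and by the number of reads in the library. The deposited values were divided by the genomic span of a gene, introns included: for genes up to 2000 bp the values were whole multiples of 1 read in at least 98.6% of cases with the span and in at most 35% with the exon length (tolerance 0.1 read). The span of the 55 genes was 1 to 49 times their exon length, with a median of 4. Levels are therefore compared between genes only as exon-length FPKM, the deposited value times span over exon length. Changes of 1 gene are given on the deposited FPKM scale. About 7080000 to 27200000 reads lay behind a library, the correlation between libraries of a group reached at most 0.98, and eggs had 6088 to 6703 genes at FPKM 1 or more against 7989 to 9745 in late embryos. In single eggs and embryos a lower value can mean less of an RNA or more of all others, and these cannot be told apart.

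Initiation begins when eIF1, eIF1A, eIF3, eIF5 and eIF2 bound to GTP and initiator tRNA assemble on the small ribosomal subunit. The eIF4F complex (the cap-binding protein eIF4E, the scaffold eIF4G and the helicase eIF4A) brings the mRNA, 4E-binding proteins hold eIF4E back, and kinases that phosphorylate eIF2 block its recharging by the exchange factor eIF2B. A mouse egg carries stored maternal mRNAs that are translated on fertilisation and then degraded, while the main wave of embryonic transcription comes in the late 2-cell embryo.

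Of the 55 genes, 51 reached FPKM 1 in at least 1 library and 18 did so in all 32. None was at 0 everywhere. The 4 that never reached FPKM 1 were Eif2ak2, Eif2ak3, Eif4g3 and Eif2c5, the last of which follows the older naming of the Argonaute family and was at 0 in every egg and early embryo. In WT, the highest stage mean lay in the egg for 10 genes, in the early 2-cell embryo for 6 and in the late 2-cell embryo for 39. In the labelled knockout the counts were 10, 5 and 40, and 53 of the 55 genes peaked at the same stage in both. The rank order of levels changed with stage. Eif2b1 stood first in WT eggs with 602 ± 81.7 exon-length FPKM (n = 3), Eif1b in WT early embryos with 355 ± 64.1 (n = 8) and Eif5a in WT late embryos with 477 ± 45.8 (n = 6). The same genes stood first at each stage in the labelled knockout. The heat map of all genes shows this turnover, with few strong rows in the eggs that fade later and a broad gain in late embryos.

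**Figure D1:**
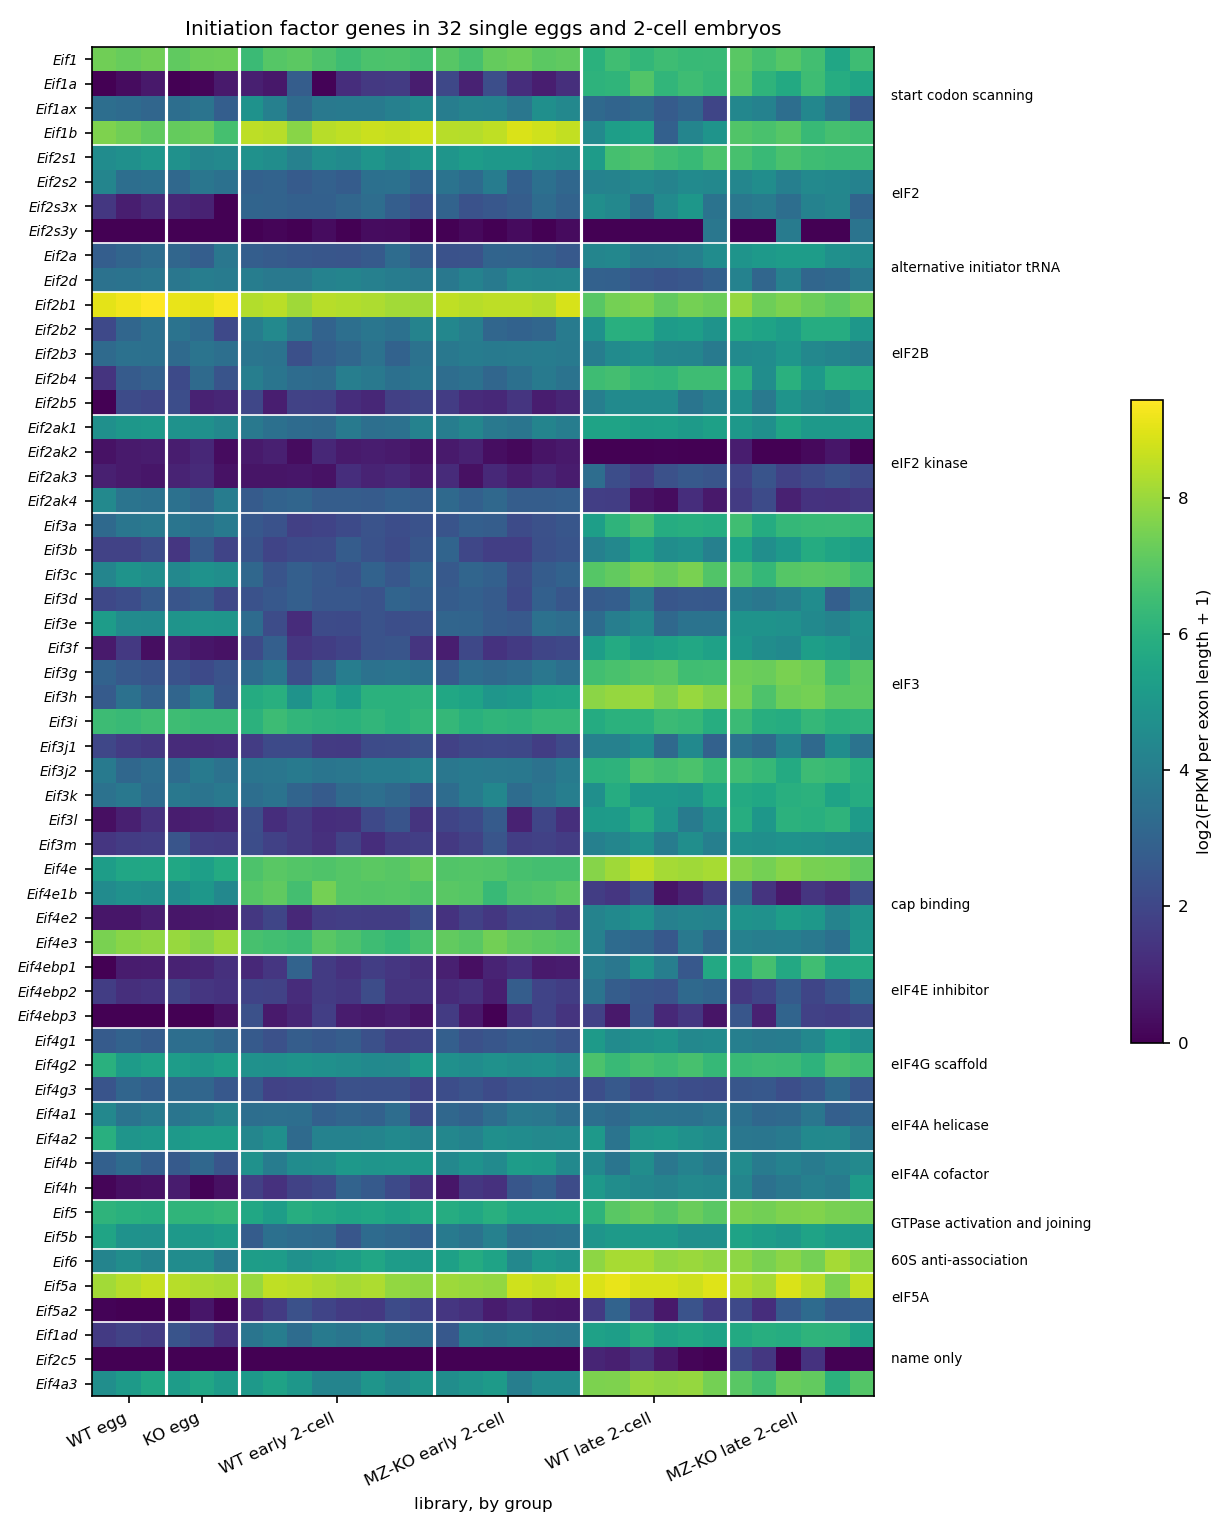
Levels of the 55 initiation factor genes, as log2(exon-length FPKM + 1), in 32 libraries ordered by group along the x axis and grouped by role along the y axis. Most rows are highest in the late 2-cell columns of both genotypes, while Eif4e1b and Eif4e3 fall to low values there.

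Promoter sequence was in the RefSeq table (GRCm38.p6) for 43 of the 55 genes, as 250 bases before and 50 after each transcription start. The windows were rich in G and C, with a median of 60.7% against 52.7% over the 27025 genes of the table. The ETS core CCGGAAG, searched on both strands, was present in 15 of 43 (34.9%) against 9.93% of all genes, the GC box GGGCGG in 74.4% against 38.2%, the E-box CACGTG in 23.3% against 8.09% and the YY1 core AAGATGGC in 11.6% against 3.19%. The NRF1 core GCATGCGC was found in 6.98% against 3.05% and the core GGATTA in 14% against 8.14%. CCAAT (32.6% against 41.1%), TATAAA (9.3% against 15.7%) and TGATGNAA (2.33% against 4.51%) had lower shares than in all genes, and only these 9 motifs were searched. None of them contains another, and the shares were not corrected for base content. Among genes that rose from the early to the late WT embryo 11 of 27 held the ETS core, and among those that fell 2 of 6 did. The 4 windows printed here hold the 250 bases before the start of genes that recur in the results, and the windows overlap no annotated gene. Capitals mark the ETS core (CCGGAAG or its reverse complement CTTCCGG) in Eif3d, Eif1ax and Eif4ebp2, and the E-box in Eif3f. A match describes these letters and is not evidence of binding.
Eif3d, an eIF3 subunit (chr15:77970825-77971074, minus strand): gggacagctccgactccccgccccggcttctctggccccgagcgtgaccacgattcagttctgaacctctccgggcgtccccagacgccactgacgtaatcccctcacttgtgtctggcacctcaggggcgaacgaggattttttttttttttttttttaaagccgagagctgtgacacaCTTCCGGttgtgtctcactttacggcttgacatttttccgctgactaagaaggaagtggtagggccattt
Eif3f, an eIF3 subunit (chr7:108934165-108934414, plus strand): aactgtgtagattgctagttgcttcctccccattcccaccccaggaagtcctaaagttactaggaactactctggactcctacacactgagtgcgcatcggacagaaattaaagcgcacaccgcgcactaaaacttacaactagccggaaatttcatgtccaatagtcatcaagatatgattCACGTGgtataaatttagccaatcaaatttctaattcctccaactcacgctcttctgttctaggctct
Eif1ax, the X-linked eIF1A gene (chrX:159371928-159372177, plus strand): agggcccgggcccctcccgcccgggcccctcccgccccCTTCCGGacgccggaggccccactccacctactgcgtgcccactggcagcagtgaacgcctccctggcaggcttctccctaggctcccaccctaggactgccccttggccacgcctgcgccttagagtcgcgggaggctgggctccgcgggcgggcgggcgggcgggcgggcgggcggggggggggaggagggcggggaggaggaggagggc
Eif4ebp2, a 4E-binding protein (chr10:61452670-61452919, minus strand): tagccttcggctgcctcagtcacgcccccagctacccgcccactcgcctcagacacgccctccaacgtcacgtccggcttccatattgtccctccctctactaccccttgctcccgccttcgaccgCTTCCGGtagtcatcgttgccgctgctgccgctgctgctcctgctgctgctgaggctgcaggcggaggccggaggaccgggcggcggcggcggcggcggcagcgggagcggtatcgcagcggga
Positions count from 1 at the 5′ end of each printed run. The ETS core starts at 181 in Eif3d, at 39 in Eif1ax and at 127 in Eif4ebp2, on the minus strand of the run in each. The E-box of Eif3f starts at 183. These 4 genes moved differently: from the early to the late WT embryo Eif3f rose, Eif4ebp2 rose, Eif1ax fell and Eif3d did not pass the test (values below).

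Most of the changes came between the early and the late 2-cell embryo. In WT embryos 46 of the 55 genes passed the filter (FPKM 1 or above in no fewer libraries than the smaller group holds), and 34 rose and 8 fell at an adjusted p below 0.05. Of all genes tested, 46.6% rose and 38.4% fell. The median log2 difference was 1.36 over the tested initiation factor genes and 0.26 over all genes tested. The filter shapes these counts: 14 of the 46 had a median below FPKM 1 in one of the groups and so passed mainly through the other. Of the 32 at a median of FPKM 1 or more in both, 22 rose and 6 fell. Among those tested, the early and late WT libraries did not overlap for 39 of 46 (84.8%), where 64.9% of all genes tested did not. From early to late embryos labelled MZ-KO, 34 rose and 8 fell of 46 tested, where 48.3% and 33.3% of all genes did, with a median of 1.47 against 0.39. Here too 14 of the 46 passed mainly through one stage, and of the other 32, 22 rose and 6 fell. The libraries did not overlap for 36 of the 46, where 65.8% of all genes tested did not. Of these, 32 that rose and 7 that fell were also called in WT, and none was called in opposite directions. Eif4ebp2, Eif5a and Eif1ax were called in WT alone and Eif3d, Eif4ebp1 and Eif4a2 in the labelled MZ-KO alone. Of these, Eif4ebp2 was not tested at the labelled MZ-KO step, nor Eif4ebp1 at the WT step, on the deposited scale. Whether such a gene differed between genotypes is given by the test of the difference below.

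Between egg and early 2-cell embryo the genes split both ways. In WT 11 rose and 13 fell of 37 tested, where 30.4% and 20.9% of all genes did. The median was -0.19 against 0.15 over all genes. Of the 37, 6 passed the filter mainly through one stage, and of the 31 at a median of FPKM 1 or more in both, 8 rose and 11 fell. From eggs labelled KO to early embryos labelled MZ-KO, 10 rose and 12 fell of 36 tested, where 29.2% and 20% of all genes did, with a median of 0.04 against 0.09. Of these 36, 4 passed mainly through one stage, and of the other 32, 8 rose and 11 fell. Calls in common were 9 of the rises and 10 of the falls. The libraries of the 2 stages did not overlap for 22 of 37 tested in WT, where 41.6% of all genes tested did not, and for 22 of 36 in the labelled knockout, where 45.1% did not. With exon-length values and every library rescaled to the same sum, an alternative chosen after the data were seen, more genes passed the filter and the split was 20 up and 13 down in WT and 18 up and 13 down in the labelled knockout. Of the 24 WT calls, 18 held under every alternative that tested the gene; Eif1ax, Eif2s2, Eif3f, Eif4a1, Eif4a2 and Eif5 did not, and those of Eif2s2, Eif4a1 and Eif4a2 were lost without the first WT egg (adjusted p = 0.197, 0.115 and 0.059).

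Among the factors that scan for the start codon, the 2 genes for eIF1 and the 2 for eIF1A exchanged rank. Eif1b, a paralog of Eif1 that is 81.1% identical over 350 aligned nucleotides of transcript, was at 70.4, 60.2 and 50.5 FPKM in the WT eggs, at 77.9 to 155 (median 133) in WT early embryos and at 2.30 to 15.2 (median 8.85) in WT late embryos. Every early embryo lay above every egg and every late embryo below. Eif1b rose by a log2 difference of 1.07 (SE 0.20, adjusted p = 0.00082) and then fell by 3.80 (SE 0.30, adjusted p = 6.38e-09). Eif1 itself, which keeps the scanning complex open until it meets a start codon, fell in smaller steps, from 158, 143 and 158 FPKM in the eggs to 81.6 to 126 (median 102) and 61.0 to 87.7 (median 77.1), with log2 differences of -0.60 (adjusted p = 0.00485) and -0.40 (adjusted p = 0.0116). As a share of the summed exon-length level of the pair, Eif1b held 50.6% in WT eggs, 76.3% in WT early embryos and 23.4% in WT late embryos. Eif1 has 13 near-identical copies elsewhere in the annotation (95% identity or more over at least 200 nucleotides), and how reads were shared among copies is not given in the sources used here.

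The eIF1A genes, whose product stabilises the open scanning complex together with eIF1, crossed between the early and the late embryo. Autosomal Eif1a was at 0, 0.055 and 0.129 FPKM in WT eggs, at 0.015 to 1.29 (median 0.237) in early embryos and at 14.9 to 25.7 (median 16.7) in late embryos. All 6 late embryos stood above all 8 early ones, and the log2 difference was 3.84 (SE 0.18, adjusted p = 1.89e-11). X-linked Eif1ax was at 2.86, 2.60 and 2.25 FPKM in the eggs, at 2.52 to 7.96 (median 4.43) in early and at 0.868 to 2.49 (median 2.13) in late embryos. It rose by 0.64 (adjusted p = 0.0349) and fell by 0.95 (adjusted p = 0.000336) on the log2 scale, and the rise lost its call without any of 5 libraries, the 3 eggs among them. Eif1a thus held 3.29% of the pair's exon-length level in WT eggs and 92.5% in WT late embryos. The transcripts are 84.4% identical over 461 aligned nucleotides. Eif1ad, named for its eIF1A-like domain, rose at both steps, by 1.76 and 1.77 (adjusted p = 6.57e-06 and 1.17e-08).

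The subunits of eIF2, the carrier of the initiator tRNA, rose in the late embryo. Eif2s1, the subunit that the stress kinases phosphorylate, was at 4.5, 5.02 and 5.88 FPKM in WT eggs, at 3.29 to 5.89 (median 4.70) in early and at 6.96 to 21.7 (median 18.8) in late embryos. Late embryos did not overlap with early ones, and the log2 difference was 1.58 (SE 0.21, adjusted p = 4e-06). Eif2s2, the beta subunit, fell by 0.57 (adjusted p = 0.0303) and then rose by 1.09 (adjusted p = 8.57e-07). Eif2s3x, the X-linked GTP-binding subunit, rose at both steps, by 0.78 (adjusted p = 0.000648) and 0.94 (adjusted p = 8.63e-05), from 0.117 to 0.298 FPKM in the eggs to 1.67 to 4.91 in late embryos. Its Y-linked homolog Eif2s3y, 86.4% identical over 1426 aligned nucleotides, was at 0 in all 6 eggs and reached FPKM 1 in 3 late embryos alone, at 2.84 in WT late library 6, 3.22 in labelled MZ-KO late library 3 and 2.58 in labelled MZ-KO late library 6. It passed no filter and was not tested.

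The 5 subunits of eIF2B, which reloads eIF2 with GTP, did not move together. Eif2b1, the alpha subunit, was at 152, 172 and 199 FPKM in WT eggs, at 77.4 to 102 (median 91.0) in early and at 36.4 to 55.2 (median 47.7) in late embryos. No 2 stages overlapped, and it fell by 0.96 (SE 0.14, adjusted p = 0.000127) and by 0.93 (SE 0.13, adjusted p = 5.97e-06) on the log2 scale. The other 4 rose from the early to the late embryo. Eif2b4 rose by 2.65 (SE 0.15, adjusted p = 1.03e-10), from 3.83 to 6.85 FPKM (median 5.18) to 32.1 to 43 (median 39.6), after a rise of 1.11 (adjusted p = 0.00268) from the egg. Eif2b5, the catalytic subunit, rose by 1.84, Eif2b2 by 1.39 and Eif2b3 by 0.62 (adjusted p = 6.93e-09, 2.47e-05 and 0.000253). Per exon length Eif2b1 exceeded Eif2b5 in every group, with 602 ± 81.7 against 2.14 ± 1.86 in WT eggs (n = 3) and 161 ± 23.6 against 18.1 ± 4.6 in WT late embryos (n = 6). Eif2b4 overlaps the protein-coding gene Snx17. In all, 12 of the 55 genes overlap a protein-coding gene, Eif1ad, Eif2a, Eif2d, Eif4ebp3 and Eif5b among them. Whether strand was used in counting is not given in the sources used here, so reads of such neighbours may be part of their values.

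Of the 4 eIF2 kinases, which answer to heme lack or other stresses (Eif2ak1, HRI), double-stranded RNA (Eif2ak2, PKR), endoplasmic reticulum stress (Eif2ak3, PERK) and amino acid lack (Eif2ak4, GCN2), Eif2ak1 held most of the summed exon-length level, 66.4% in WT eggs and 87.0% in WT late embryos. It was at 1.70, 2.02 and 2.19 FPKM in the eggs, 0.552 to 1.14 (median 0.673) in early and 2.22 to 2.85 (median 2.60) in late embryos, a fall of 0.77 (adjusted p = 0.000325) and a rise of 1.04 (adjusted p = 3.37e-08) with no overlap at either step. The span of Eif2ak1 is 15.2 times its exon length and overlaps the protein-coding genes Aimp2 and Ankrd61. Its share therefore depends on the length correction, and how reads in the overlap were counted is not given in the sources used here. The other 3 kinases lay mostly under FPKM 1 on the span scale. Eif2ak3 and Eif2ak4 were tested only on exon-length values, where 82% of all genes tested changed from the early to the late WT embryo, and Eif2ak2 was not tested on either scale. On exon-length values Eif2ak4 fell by 1.03 (adjusted p = 0.00102) and then by 1.81 (adjusted p = 1.37e-06), and Eif2ak3 rose by 1.70 (adjusted p = 2.78e-06). Eif2ak2 stayed at 0.186 FPKM or less in all 32 libraries and at 0.008 or less in the WT late embryos. Eif2a and Eif2d, which can bring initiator tRNA without eIF2, went opposite ways: Eif2a rose by 1.04 (adjusted p = 7.18e-07) from the early to the late WT embryo and Eif2d fell by 0.92 (adjusted p = 3.9e-07).

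The 14 genes for subunits of eIF3, the platform that joins the small subunit to the other factors, summed to 197 ± 2.22 exon-length FPKM in WT eggs (n = 3), 190 ± 23.1 in WT early embryos (n = 8) and 889 ± 115 in WT late embryos (n = 6). From the early to the late embryo 12 of 14 rose in WT and 13 of 14 in the labelled MZ-KO, and none fell. Of all genes tested 46.6% and 48.3% rose, and 38.4% and 33.3% fell. The filter shapes these eIF3 counts too. At least Eif3b, Eif3j1, Eif3l and Eif3m failed it among early embryos and passed here mainly through the late embryos. From the egg to the early embryo 2 rose and 3 fell of the 10 tested in WT, where 30.4% and 20.9% of all genes did. Eif3b, Eif3j1, Eif3l and Eif3m did not pass the filter at that step. The 3 that fell were Eif3a, Eif3c and Eif3e. Eif3c, a core subunit, was at 3.25, 4.88 and 4.21 FPKM in WT eggs, at 0.748 to 1.39 (median 1.00) in early embryos and at 20.3 to 32.2 (median 26.2) in late embryos. No stage overlapped another, with a fall of 1.32 (SE 0.14, adjusted p = 1.64e-05) and a rise of 3.73 (SE 0.14, adjusted p = 1.87e-12). Eif3a, the largest core subunit, fell by 1.03 (adjusted p = 0.000121) and rose by 3.17 (adjusted p = 7.63e-11). Eif3e fell by 1.83 (adjusted p = 2.77e-05) and rose by only 0.95 (adjusted p = 0.000101): its late embryos at 1.66 to 4.17 FPKM (median 2.26) stayed below the eggs at 4.47 to 7.51.

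Other eIF3 subunits started low and rose. Eif3g, an RNA-binding subunit, was at 3.17, 2.38 and 2.08 FPKM in WT eggs, 1.76 to 6.99 (median 4.86) in early and 42.6 to 59.99 (median 46.3) in late embryos, a rise of 3.20 (SE 0.20, adjusted p = 5.53e-10) with no overlap. Eif3f and Eif3h, which form a pair of related subunits in the complex, rose at both steps. The differences were 0.69 and 2.89 for Eif3f (adjusted p = 0.0229 and 1.64e-10, limma) and 0.85 and 1.44 for Eif3h (adjusted p = 0.000785 and 1.21e-08). The span of Eif3h is 49 times its exon length, and log2(FPKM + 1) understates changes at its low values. Its exon-length FPKM was 7.56 ± 2.58 in WT eggs (n = 3), 53.6 ± 14.3 in early (n = 8) and 227 ± 26.7 in late embryos (n = 6). Eif3l, Eif3k, Eif3m, Eif3b and Eif3j1 rose from the early to the late WT embryo by 2.22, 1.74, 1.52, 1.42 and 1.30 (adjusted p between 6.63e-06 and 2.66e-09). Eif3j2, an intronless gene whose transcript is 99.4% identical to that of Eif3j1 over 2379 nucleotides, rose by 2.60 (adjusted p = 2.3e-10), and reads of this pair cannot be told apart with certainty. The 2 subunits that did not pass the test in WT were Eif3i, at 27.4 to 37 FPKM (median 29.8) in early and 23.5 to 35.9 (median 27.2) in late embryos (log2 difference -0.08, adjusted p = 0.584), and Eif3d (0.16, adjusted p = 0.356). The WT early and late embryos overlapped for both. The plot of eIF3 steps shows both genotypes side by side.

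**Figure D2:**
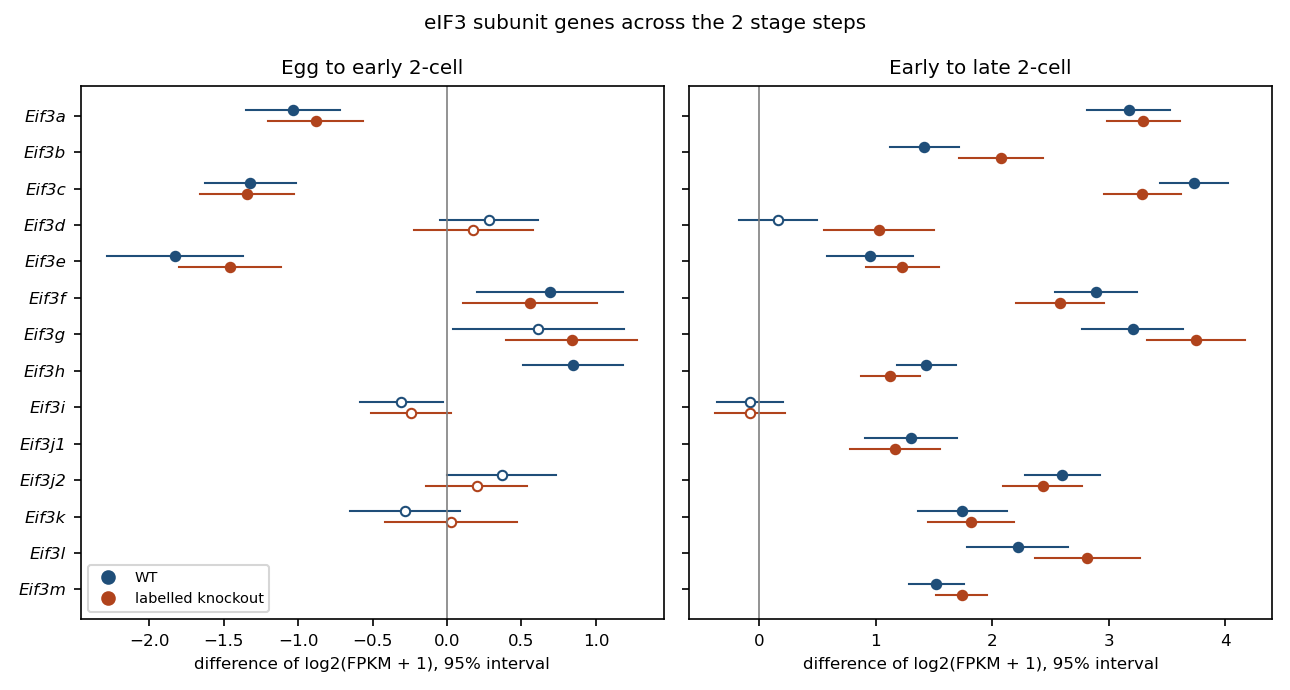
Difference of log2(FPKM + 1) with its 95% interval on the x axis for the 14 eIF3 subunit genes on the y axis, at the step from egg to early 2-cell embryo and at the step from early to late 2-cell embryo, in WT and in the labelled knockout; filled points passed an adjusted p of 0.05 (limma). At the later step 12 subunits rose in WT and 13 in the labelled MZ-KO, where 46.6% and 48.3% of all genes tested did. At least Eif3b, Eif3j1, Eif3l and Eif3m passed the filter there mainly through the late embryos. Eif3a, Eif3c and Eif3e fell at the earlier step in both.

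The cap-binding genes changed rank with stage. Eif4e3 made up 75.4% of the summed exon-length level of the 4 genes in WT eggs. In WT early embryos Eif4e and Eif4e1b held 35.6% and 35.5%, with Eif4e3 at 28.2%, and Eif4e held 89.9% in the WT late embryo. In the labelled knockout Eif4e3 led in eggs (76.8%) and still in early embryos (38.4%), and Eif4e led in late embryos (79.1%). Eif4e1b, a paralog known from oocytes, was at 11.3, 13.2 and 12.1 FPKM in WT eggs, at 48.4 to 87.4 (median 61.0) in early embryos and at 0.217 to 1.67 (median 0.997) in late embryos. Each stage lay apart from the next, with a rise of 2.27 (SE 0.16, adjusted p = 1.04e-06) and a fall of 5.10 (SE 0.18, adjusted p = 1.67e-12), the largest fall among the initiation factor genes tested at either step in WT. Eif4e3, another family member, was at 11.1, 12.8 and 14 FPKM in the eggs, at 4.72 to 7.68 (median 5.94) in early and at 0.302 to 1.01 (median 0.503) in late embryos. It fell at both steps with no overlap, by 0.97 (adjusted p = 0.000204) and 2.14 (adjusted p = 2.48e-10). Eif4e, the cap-binding subunit of eIF4F, was at 6.61, 8.29 and 8.57 FPKM in the eggs, at 19.7 to 25.9 (median 22.1) in early and at 37.3 to 66.4 (median 49.97) in late embryos. It rose at both steps, by 1.40 (adjusted p = 5.74e-06) and 1.15 (adjusted p = 8.47e-07), and no stage overlapped another. Eif4e2, which binds caps without eIF4G and is known from translational repression, rose by 1.96 (adjusted p = 5.94e-10) to 4.52 to 7.56 FPKM (median 5.05) in WT late embryos. Eif4e3 overlaps a protein-coding gene model, and its span is 16.6 times its exon length, so its share depends on the length correction.

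**Figure D3:**
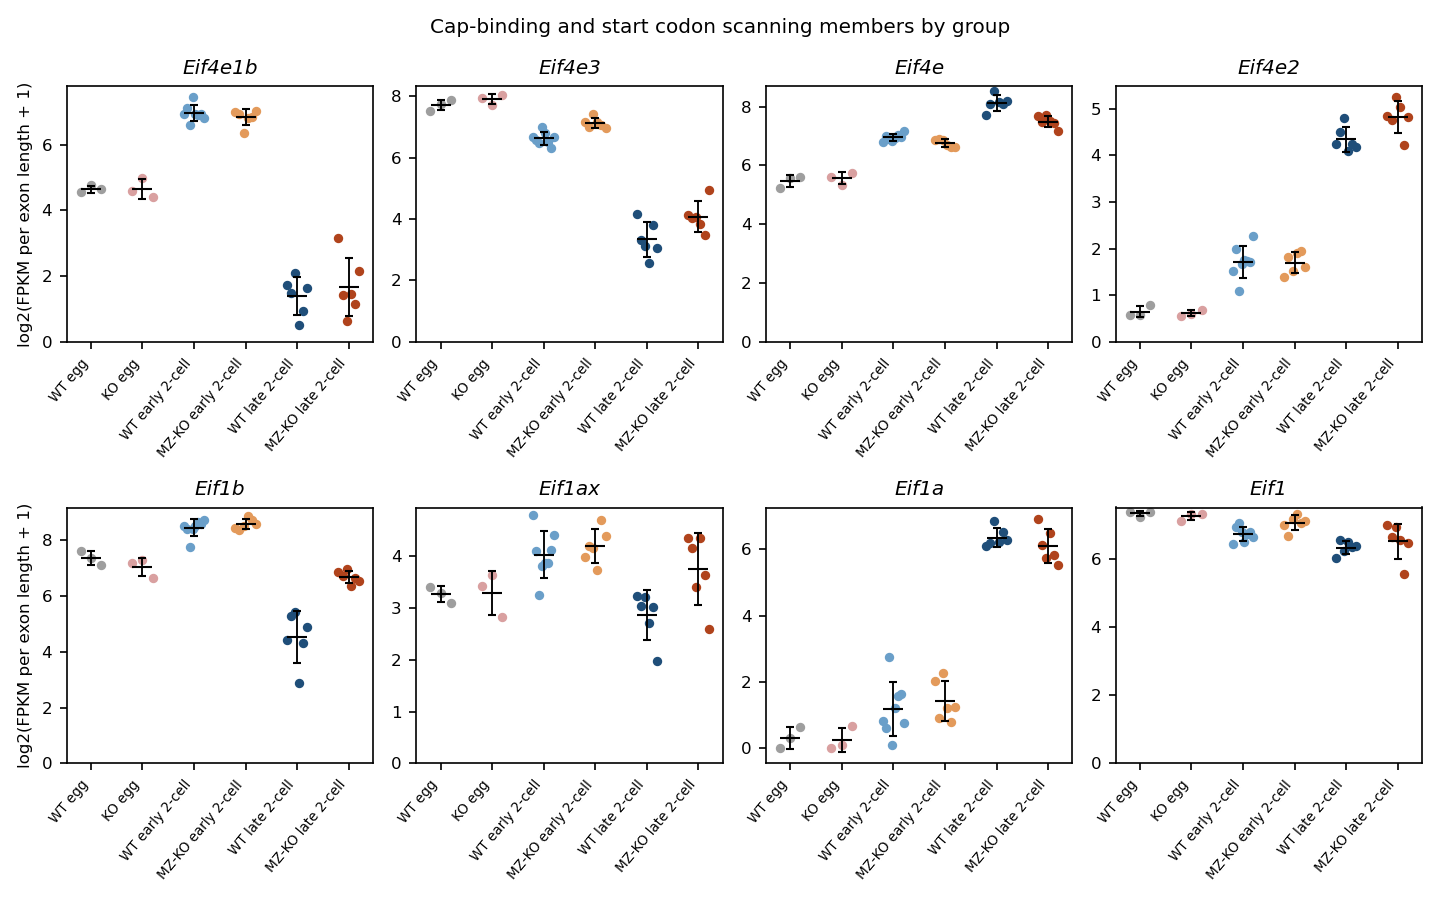
Exon-length FPKM, on a log2(value + 1) y axis, of the paralogs Eif4e1b, Eif4e3, Eif4e, Eif4e2, Eif1b, Eif1ax, Eif1a and Eif1 in the 6 groups on the x axis; points are libraries and bars the mean ± SD of the log2 values. Eif4e1b, Eif4e3 and Eif1b drop in late 2-cell embryos, while Eif4e, Eif4e2 and Eif1a rise.

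Per exon length the genes of the 4E-binding proteins ranked 42 or lower of 55 in WT eggs and 45 or lower in WT early embryos. In WT late embryos Eif4ebp1 ranked 30 with 21.1 ± 16.3 exon-length FPKM (n = 6), Eif4ebp2 43 and Eif4ebp3 51. Eif4ebp1 was at 0.091 FPKM or less in WT eggs, at 0.151 to 0.934 (median 0.243) in early and at 0.684 to 6.82 (median 2.06) in late embryos, and the early and late ranges overlapped. Too few libraries reached FPKM 1 for a test on the deposited scale. On exon-length values, where 45.1% of all genes tested changed at the first step and 82% at the second, it rose by 1.15 (adjusted p = 0.0165, limma) from the egg and by 2.53 (adjusted p = 1.44e-05) to the late embryo. Eif4ebp2 rose from a median of 0.476 to 1.57 FPKM (log2 difference 0.78, adjusted p = 3.68e-05). Eif4ebp3 stayed at 1.79 FPKM or less in WT and was not tested across stages on the deposited scale. On exon-length values it rose by 1.05 (adjusted p = 0.0346) from the egg to the early embryo, and the later step gave 0.30 (adjusted p = 0.429). Of the scaffolds, Eif4g2, a relative of eIF4G that lacks the eIF4E-binding part, held most of the exon-length level of the 3 genes in all 6 groups, from 68.8% in eggs labelled KO to 78.4% in WT eggs. It fell by 0.80 (adjusted p = 0.00343), from 23.6 to 41.1 FPKM in eggs to 13.8 to 21.7 in early embryos, and rose by 1.82 (adjusted p = 3.27e-09) to 52.6 to 71.3 in late embryos. Eif4g1, the main scaffold of eIF4F, rose by 1.88 (adjusted p = 4.8e-09) at the later step, and Eif4g3 stayed at 0.431 FPKM or less.

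The helicase genes Eif4a1 and Eif4a2 fell from the egg to the early WT embryo, by 0.85 (adjusted p = 0.0186) and 1.09 (adjusted p = 0.00776), and neither passed the test at the later step (0.40 and 0.45, adjusted p = 0.0554 and 0.0973). Eif4a2 held 72.5% of the pair's exon-length level in WT eggs and 69.6% in WT late embryos. Eif4a2 overlaps 7 annotated genes, small nucleolar RNAs and the protein-coding Rfc4 among them. Their cofactors Eif4b and Eif4h differed: Eif4b rose by 1.34 (adjusted p = 0.000124) and then fell by 0.54 (adjusted p = 0.00853), and Eif4h rose by 1.91 (adjusted p = 5.38e-08) at the later step. Eif4a3, a related helicase of the exon junction complex, was at 3.26 to 7.67 FPKM (median 5.33) in early and 32.0 to 45.7 (median 38.7) in late WT embryos, a rise of 2.75 (adjusted p = 5.51e-10) with no overlap.

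Eif5, which triggers GTP hydrolysis by eIF2, was at 54.1, 48.3 and 46.4 FPKM in WT eggs, at 29.2 to 45.2 (median 37.6) in early and at 52.8 to 121 (median 99.3) in late embryos. It fell by 0.42 (adjusted p = 0.0293) and rose by 1.33 (adjusted p = 3.25e-06), with no overlap at either step. Eif5b, which joins the large subunit, fell by 1.49 (adjusted p = 3e-05) from 4.42 to 7.61 FPKM in eggs to 0.810 to 1.71 in early embryos and returned by 1.41 (adjusted p = 1.43e-08). Eif6, which keeps free large subunits from joining and acts in their assembly, rose at both steps, from 6.85 to 8.98 FPKM in eggs to 86.5 to 112 in late embryos, by 0.75 and 2.76 (adjusted p = 0.00262 and 4.33e-11). Eif5a, a factor that frees stalled ribosomes and carries the modified residue hypusine, was at 102 to 168 FPKM (median 133) in early and 187 to 250.1 (median 213) in late WT embryos, a rise of 0.72 (adjusted p = 0.000175). Its paralog Eif5a2 stayed at 2.03 FPKM or less in WT and held at most 1.59% of the pair's exon-length level in any group.

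In eggs, the genotype label separated none of the 33 genes tested at an adjusted p below 0.05 (limma), where 0.212% of all genes were higher and 0.121% lower. The median difference, labelled KO minus WT, was 0.03 against 0.06 over all genes, and 1 gene had an unadjusted p below 0.05. The 3 libraries of each group did not overlap for 4 of the 33, where 15.5% of all genes tested did not. In early embryos 1 of 36 tested genes was called, where 2.58% of all genes were higher and 0.704% lower in the labelled MZ-KO. This was Eif4e3, at 4.72 to 7.68 FPKM (median 5.94) in WT and 7.46 to 10.3 (median 8.29) in the labelled MZ-KO. The groups overlapped slightly, and the difference was 0.44 on the log2 scale (SE 0.11, adjusted p = 0.0412). The call did not hold when any of 12 of the 14 libraries was left out (adjusted p up to 0.086). Eif2b3 was the only one of the 36 whose early libraries did not overlap, where 1.72% of all genes tested did not. It was at 0.379 to 1.12 FPKM (median 0.889) in WT and 1.21 to 1.40 (median 1.32) in the labelled MZ-KO (0.36, adjusted p = 0.0759, limma). Of the 36, 4 passed the filter mainly through one group, and Eif2b3 did so through the labelled MZ-KO. Its lack of overlap is thus in part set by the filter. For 7 genes the unadjusted p was below 0.05, and the median was 0.06 against 0.05 over all genes.

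In late embryos 16 of the 47 genes tested differed with the label: 10 were higher and 6 lower in the labelled MZ-KO, where 18.5% and 13.4% of all genes were. The median difference was 0.12 against 0.07 over all genes. Of the 47, 3 passed the filter mainly through one group, and the 10 higher and 6 lower lay among the other 44. The split depends on scaling: with each library rescaled by the median of ratios, 5 were higher and 9 lower, and the calls over all genes went from 1624 higher and 1178 lower to 1097 and 1628, with the median of all genes at -0.08. No called gene changed sign. Late libraries did not overlap for 7 of the 47, where 13.7% of all genes tested did not, with Eif1b, Eif2d and Eif5 being higher and Eif2b4, Eif3h, Eif4a3 and Eif4e lower in the labelled MZ-KO. Of the 16 calls, 8 held under every alternative that tested the gene: Eif1b, Eif4ebp1, Eif3e and Eif2a were higher and Eif4a3, Eif4e, Eif3f and Eif3h lower. The plot of late differences gives all 47 with their intervals.

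**Figure D4:**
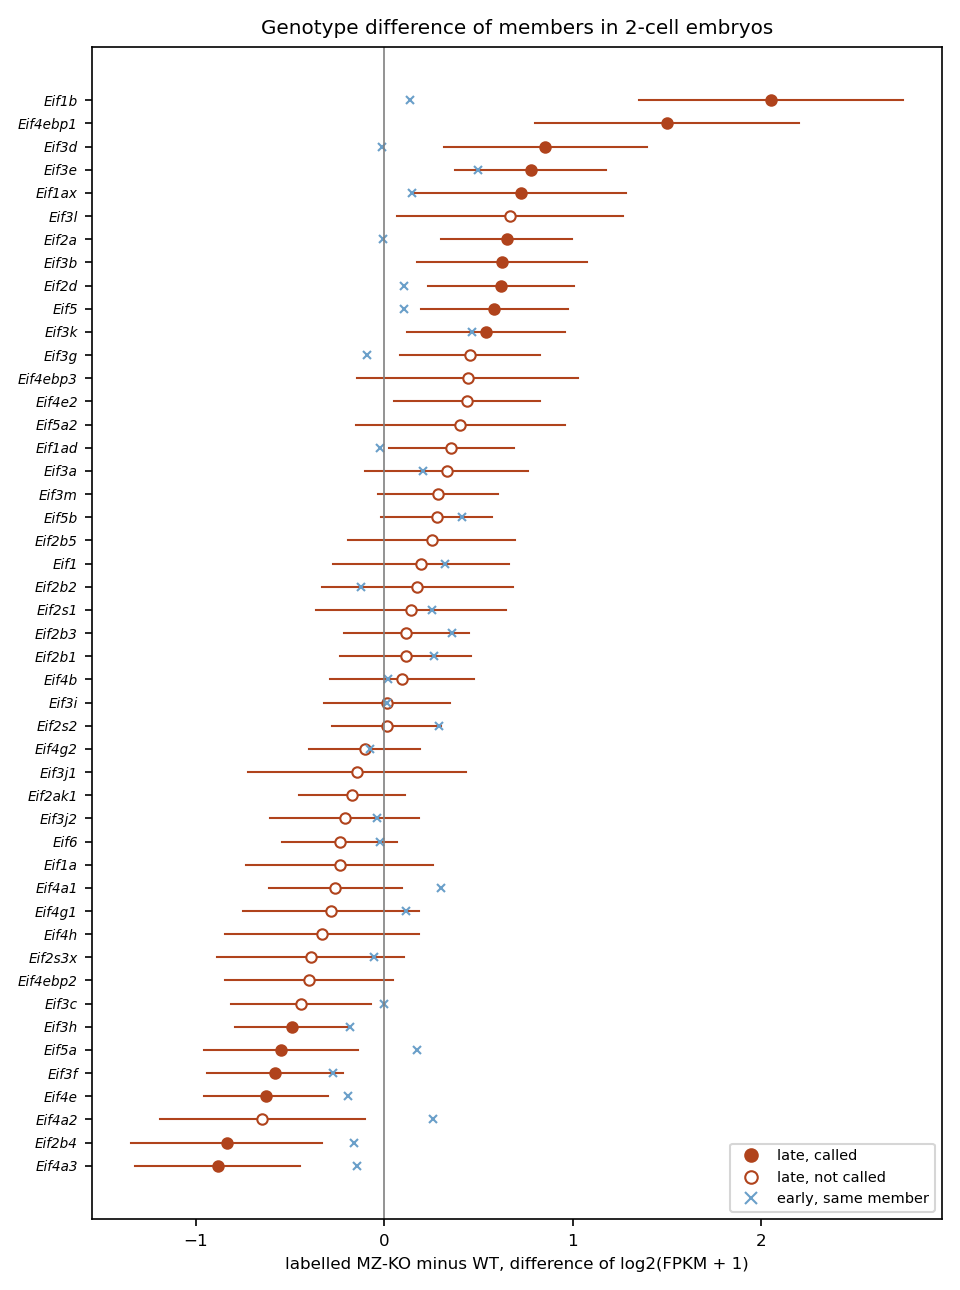
Difference of log2(FPKM + 1), labelled MZ-KO minus WT, with its 95% interval on the x axis for the 47 initiation factor genes tested in late 2-cell embryos (y axis); crosses give the same difference in early 2-cell embryos where tested. Intervals of Eif1b and Eif4ebp1 lie farthest to the right, at 2.05 and 1.5, and those of Eif4a3 and Eif2b4 farthest to the left, at -0.89 and -0.84.

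Eif1b, the eIF1 paralog that fell from the early to the late embryo, stayed higher in the labelled MZ-KO. It was at 2.30 to 15.2 FPKM (median 8.85) in WT and at 29.4 to 44.8 (median 37.2) in the labelled MZ-KO late embryos. All 6 lay above all 6 WT libraries, a log2 difference of 2.05 (SE 0.33, adjusted p = 0.000621). In the labelled MZ-KO, Eif1b held 52.5% of the exon-length level of the eIF1 pair. Eif4ebp1, the inhibitor of eIF4E, was at 0.684 to 6.82 FPKM (median 2.06) in WT and at 6.76 to 13.2 (median 7.31) in the labelled MZ-KO late embryos. The ranges overlapped at the top of WT, and the difference was 1.5 (SE 0.32, adjusted p = 0.0042). Eif4e itself was at 37.3 to 66.4 FPKM (median 49.97) in WT and 25.5 to 37.1 (median 31.8) in the labelled MZ-KO, with no overlap and a difference of -0.63 (SE 0.15, adjusted p = 0.00815).

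Eif3 subunits went both ways. Eif3e was at 1.66 to 4.17 FPKM (median 2.26) in WT and 3.64 to 5.71 (median 5.25) in the labelled MZ-KO late embryos, overlapping in part (0.78, SE 0.19, adjusted p = 0.00718). Eif3d (0.85), Eif3b (0.63) and Eif3k (0.54) were also higher (adjusted p = 0.0201, 0.0364 and 0.0497), and Eif3f (-0.58, SE 0.17, adjusted p = 0.0192) and Eif3h (-0.49, SE 0.14, adjusted p = 0.0176) lower. Eif3h was at 3.88 to 5.17 FPKM (median 4.73) in WT and 2.27 to 3.56 (median 3.01) in the labelled MZ-KO, without overlap. The summed exon-length level of the 14 genes was 889 ± 115 FPKM in WT and 876 ± 109 in the labelled MZ-KO (n = 6 each). Calls of Eif3b and Eif3k were lost without any of 8 and 9 single libraries. Those of Eif3b, Eif3d and Eif3k were also lost with no filter and with median-of-ratios scaling.

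Of the remaining late calls, Eif4a3 was at 32.0 to 45.7 FPKM (median 38.7) in WT and 11.6 to 27.7 (median 22.6) in the labelled MZ-KO, a difference of -0.89 (SE 0.20, adjusted p = 0.00558). Eif2b4 was at 32.1 to 43 FPKM (median 39.6) and 10.4 to 29 (median 25.4), a difference of -0.84 (SE 0.24, adjusted p = 0.0168). Neither overlapped. Eif2a, at 2.61 to 4.39 FPKM (median 3.34) in WT and 4.32 to 6.95 (median 5.98) in the labelled MZ-KO, overlapped by a small margin and was higher by 0.65 (SE 0.16, adjusted p = 0.00887). Eif2d (0.62, adjusted p = 0.019), Eif5 (0.58, adjusted p = 0.0261) and Eif1ax (0.72, adjusted p = 0.0483) were higher, and Eif5a (-0.55, adjusted p = 0.0412) was lower. The call of Eif5 was lost without labelled MZ-KO late library 4 (adjusted p = 0.0516). That of Eif5a was lost without any of 8 libraries and that of Eif1ax without any of 11 of the 12. With no filter the calls of Eif5, Eif5a, Eif1ax, Eif2d and Eif2b4 were lost as well. Median-of-ratios scaling removed those of Eif5 and Eif1ax, and over all alternatives the adjusted p of Eif5 reached 0.2 (limma). The other eIF2B subunits and the 3 tested eIF2 subunits did not pass the test.

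**Figure D5:**
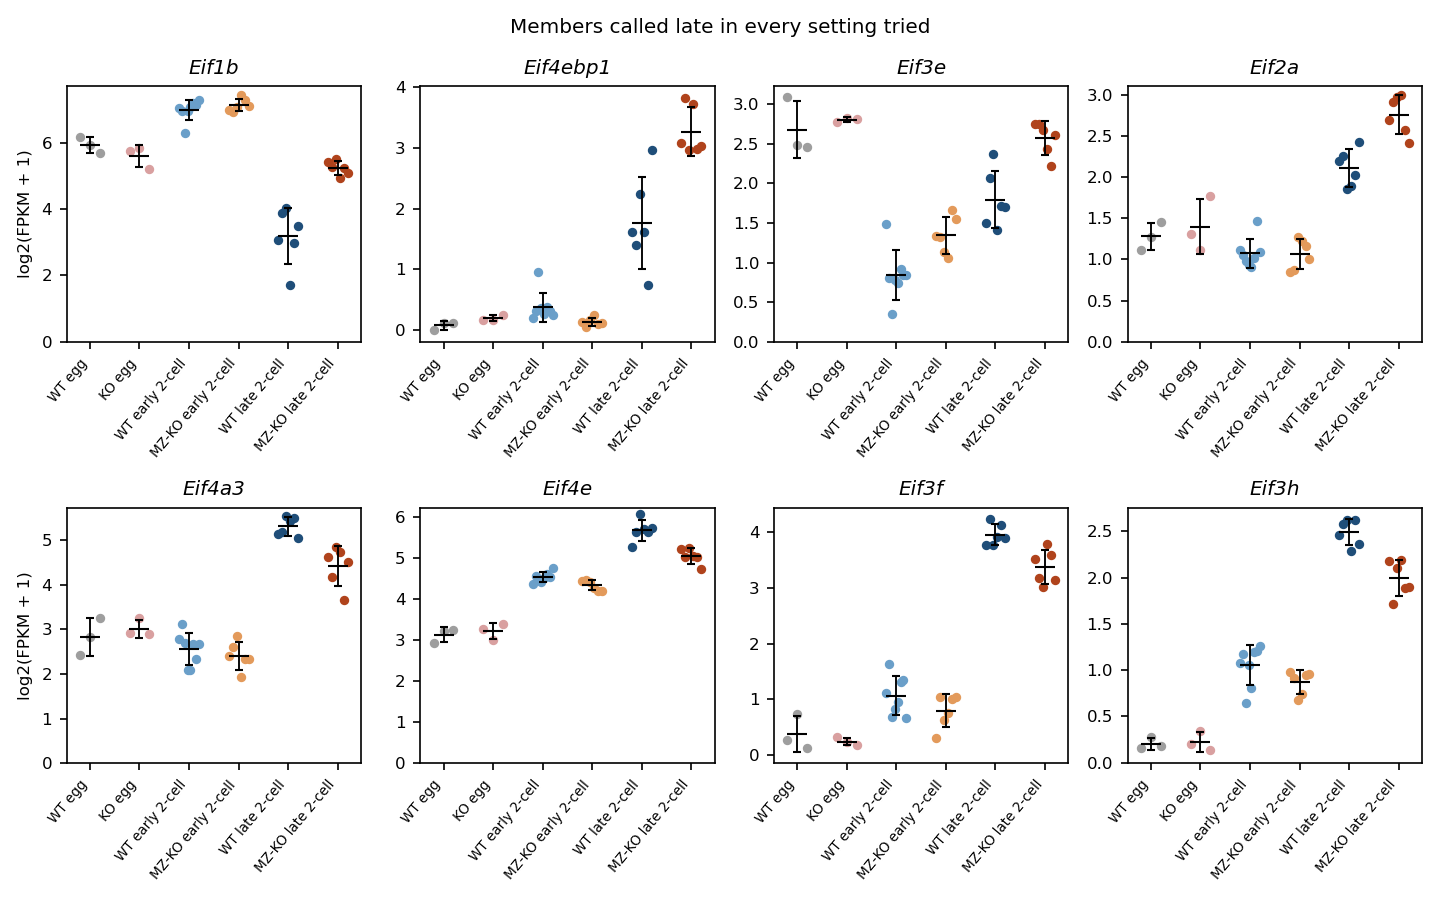
log2(FPKM + 1) on the y axis in the 6 groups on the x axis for the 8 genes whose late genotype call held under every alternative; points are libraries and bars the mean ± SD of the log2 values. In the late groups Eif1b, Eif4ebp1, Eif3e and Eif2a are higher, and Eif4a3, Eif4e, Eif3f and Eif3h lower, in the labelled MZ-KO.

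Sums of marker genes were also read in late embryos, and their ranges overlapped between the genotypes except for blood and immune cells. The 12 markers of the 2-cell embryo summed to 424.5 to 1157 FPKM in WT late embryos against 192 to 506 in those labelled MZ-KO. Of 10 of them tested, 7 were lower and 1 higher, where 13.4% and 18.5% of all genes tested were. Of 10 markers of blood and immune cells, the sum was 13.4 to 23.4 FPKM in WT and 35.5 to 156 in the labelled MZ-KO. In either group 4 reached FPKM 1, and Ptprc, C1qa and Cd3e were at 0 in all 12 libraries. Only 3 of the 10 were tested, and all 3 were higher. The sum thus rests on few genes, and the list holds globin genes beside leukocyte genes. The 12 markers of cumulus and granulosa cells summed to 6.19 to 12.3 against 4.23 to 7.88 FPKM, the 7 sperm markers to 10.15 to 28.7 against 7.60 to 13.5, and the 11 egg markers to 503 to 737 against 468 to 635. The part of these in the initiation factor results was not tested.

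The test of the difference itself, the genotype difference late minus that early, called 7 of 49 genes, 6 higher and 1 lower, where 12% and 8.4% of all genes were. Eif1b (1.92, SE 0.35, adjusted p = 0.000424) and Eif4ebp1 (1.74, SE 0.33, adjusted p = 0.00057) held under every alternative. Eif4ebp1 was at 0.04 to 0.184 FPKM (median 0.095) in early embryos labelled MZ-KO against 0.151 to 0.934 (median 0.243) in WT, ranges that overlap. It was not tested there on the deposited scale. On exon-length values, where 2.37% of all genes tested were called, the early difference was -0.83 (95% interval -1.38 to -0.29, adjusted p = 0.0973). Eif3d (0.87, adjusted p = 0.0226), Eif5a2 (0.83, adjusted p = 0.0316), Eif3b (0.66, adjusted p = 0.0303), Eif2a (0.66, adjusted p = 0.00875) and Eif4a2 (-0.91, adjusted p = 0.0384) lost their calls under some. With median-of-ratios scaling the split was 2 higher and 10 lower, so the direction of the count rests on the scaling. The genotype difference early minus egg called none of 38 genes (limma; 2 at an unadjusted p below 0.05), where 0.217% of all genes were higher and 0.134% lower.

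Genes around initiation were read from lists of the same pathway, on the deposited scale. From the early to the late WT embryo 46.6% of all genes tested rose and 38.4% fell, and the counts that follow are to be read against these shares. Of 9 genes on the elongation factor list 6 were tested from the early to the late WT embryo, and 3 rose, Eef2 most (2.40). The other 3 fell, the eEF2 kinase gene Eef2k most (-1.71, adjusted p = 1.44e-10, limma). Of 9 termination and recycling genes 7 were tested, and 5 rose and 2 fell. Denr, a partner in recycling, rose by 2.13, and Gspt2, a release factor gene, fell by 1.31. Of 9 poly(A)-binding genes and partners 8 were tested, and 3 rose and 4 fell. The somatic forms Pabpc1 and Pabpn1 rose by 3.61 and 4.88, and the oocyte forms Pabpc1l and Pabpn1l fell by 2.19 and 4.13. Of 15 genes of the mTOR and MAP kinase arm 11 were tested, with 5 higher and 2 lower, and of 19 helpers and repressors 11 were tested, with 8 higher and 1 lower. Dhps and Dohh, which make the hypusine of eIF5A, rose by 3.25 and 3.00, and Bzw1 and Bzw2, which compete with eIF5, rose by 3.84 and 1.68. Of 15 rows for the integrated stress response 9 were tested, and 7 rose and none fell (limma), with all 9 values above 0. Sesn2, a stress-induced inhibitor of mTORC1 signalling, rose by 3.56 (adjusted p = 1.85e-10), and Ppp1r15b and Ppp1r15a, which direct the eIF2 phosphatase, by 2.63 and 2.41.

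With the genotype label in late embryos the lists were read in the same way, against 18.5% of all genes tested being higher and 13.4% lower. Of 15 rows for the integrated stress response, of which Ddit3 has 2, 10 were tested, with 3 higher and 4 lower in the labelled MZ-KO. The widest differences were those of Ddit3, a transcription factor gene of the response, lower by 1.88 (adjusted p = 0.00149) in one row and by 1.15 (adjusted p = 0.0368) in the other, and of Nupr1, a stress-induced gene, higher by 1.53 (adjusted p = 0.0217). Atf4, the transcription factor translated when eIF2 is phosphorylated, was lower by 0.86 (adjusted p = 0.0247), and Ppp1r15a, which directs the eIF2 phosphatase, by 0.94 (adjusted p = 0.0205). Dnajc3, an inhibitor of eIF2 kinases, was higher by 0.79 (adjusted p = 0.000949). None of the 12 tested genes of the mTOR and MAP kinase arm was called by limma (2 at an unadjusted p below 0.05). On the elongation factor list 2 of 5 tested genes were higher (Eef1e1 0.81, Eef1b2 0.79), and a role of Eef1e1 in elongation itself was not tested. Among 6 tested termination and recycling genes 2 were higher (Mcts2 0.94, Denr 0.75). Pabpn1 (-0.88), Bzw2 (-0.64) and Bzw1 (-0.48) were lower.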

How the data were processed

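The authors deposited 1 table of FPKM values for 32 libraries (SMART-seq v4 type cDNA from single eggs or embryos in 5 uL of lysis buffer, 15 cycles of amplification, Tn5 tagmentation, per the labels' protocols). The submitters' processing notes name TopHat2, DESeq, DESeq2 and the build mm10, without versions or roles. Raw counts were not analysed here, so the depth is known only through the steps of low FPKM values, and 6 columns of the authors' own comparison were not used. Gene IDs were matched to GENCODE M21 (54409 of 54532), and 27 symbols had been turned into dates. Groups follow the sample titles. The columns carry no replicate numbers, so libraries are numbered in column order.

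For each of 9 comparisons limma 3.58.1 (R 4.3.3, statmod 1.5.0; trend and robust) was fitted over all genes that reached FPKM 1 in no fewer libraries than the smallest group holds, on log2(FPKM + 1), a scale that understates changes of low genes. Calls were made at an adjusted p below 0.05 (Benjamini-Hochberg over all genes tested). The fit was tested on simulated data. Described are the called members and those that define the steps of initiation, and up to 6 called genes of each other list. Members, lists and marker genes were chosen with earlier results of these data known. Exon-length values used the summed exons of GENCODE M21. Identity between transcripts was taken with blastn 2.17.0, and figures with matplotlib 3.10.9. Alternatives were a pseudocount of 0.1, no filter, a filter at FPKM 5, median-of-ratios scaling, exon length, 1 fit over all 32 libraries, leaving out each library, and, added after the data were seen, exon length with equal library sums.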

Additional observations from a re-analysis of the deposited data

Results flagged for a closer look

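In 9 of 165 sets of values (5.45%; chance gives about 1 in 20) 1 library lay far from the rest of its group. In early embryos these were Eif1ad in labelled MZ-KO library 1 (2.94 FPKM against 7.15 to 8.73 in the others), Eif2b1 in labelled MZ-KO library 6 (133 against 95.5 to 106), Eif1b in WT library 3 (77.9 against 123 to 155), Eif2a in WT library 7 (1.77 against 0.884 to 1.17) and Eif3i in WT library 2 (37 against 27.4 to 31.5). In late embryos they were Eif3d in WT library 3 (5.06 against 2.00 to 2.55), Eif5 in WT library 1 (52.8 against 98.3 to 121), and Eif4e3 and Eif4h in labelled MZ-KO library 6 (1.81 against 0.608 to 1.00, and 9.93 against 2.91 to 5.26).

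The genotype difference in late embryos differed from that in early embryos for 7 genes by limma's test of the difference. The late minus the early value, in log2 units, was positive for Eif1b (1.92), Eif4ebp1 (1.74), Eif3d (0.87), Eif5a2 (0.83), Eif3b (0.66) and Eif2a (0.66), and negative for Eif4a2 (-0.91). A positive value is not always a larger difference: on exon-length values the early difference of Eif5a2 was -0.84 (adjusted p = 0.0479) and that of Eif4ebp1 -0.83 (adjusted p = 0.0973). Both terms use the genotype labels, which the level of Trp53 did not follow in late embryos.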

How the results depend on the processing

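No paired analysis was possible because the columns carry no replicate numbers. Of the values of single members under the alternatives, 7379 kept their side of the threshold, 103 gained a call, 165 lost one and none reversed. All 42 WT calls from early to late embryos held under every alternative that tested the gene, as did 38 of 42 in the labelled MZ-KO, 18 of 24 and 17 of 22 from egg to early embryo, 8 of 16 late genotype calls, 2 of 7 for the difference late minus early and 0 of 1 early genotype calls. Without a filter the count of called members went to 0 for the early genotype, 8 for the late genotype and 3 for the difference late minus early. A filter at FPKM 5 tested fewer genes and gave 10 (late genotype), 14 (WT egg to early), 24 (WT early to late) and 25 (labelled MZ-KO early to late). Median-of-ratios scaling gave 0 for the early genotype and 12 for the difference late minus early. Exon length gave 2, and the fit over all libraries 3, for the early genotype, and that fit gave 11 for the difference late minus early. The cause was not tested.

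Leaving out 1 library at a time gave 0 to 0 called members in eggs, 0 to 2 for the early and 11 to 17 for the late genotype, 20 to 26 and 42 to 44 for the WT steps, 18 to 23 and 39 to 42 for the labelled knockout steps, 0 to 0 for the difference early minus egg and 5 to 9 for the difference late minus early. The early count with all libraries was 1, and it changed when single libraries were left out. The reads behind a value near FPKM 1 depend on the span of the gene. Over the 32 libraries the reads behind the whole gene, at whatever FPKM it had, were about 497 to 4145 for Eif2b3 and 0 to 116 for Eif4ebp3.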
